A study of Homo sapiens with 21 samples.

Results

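BCL11A is the locus described here, as seen by multi-way chromatin contacts from an enhancer and from a CTCF-binding site (CBS) beside the gene. Its members were all 7 deposited tables that name BCL11A, of 371 tables for 53 loci in the series, and they comprised 4 enhancer libraries and 3 CBS libraries. In the Tri-C assay, chromatin is cut with the restriction enzyme NlaIII and religated, and reads are kept that join a captured fragment, the viewpoint, to at least 2 other fragments, the reporters. The cells were BLaER, a human leukaemia B cell line that activation of C/EBPα turns into macrophage-like cells (iMacs). Enhancer and CBS were each captured before conversion (0 h) and 24 h and 96 h into it. One more enhancer library, called 96h-depl and also taken at 96 h, came from a BLaER subclone, CTCF-AID, in which CTCF carries an auxin-inducible degron and which was kept in auxin. The labels give the control at 96 h as BLaER with neither the degron nor auxin named, so the subclone, auxin and loss of CTCF cannot be told apart. The 21 samples formed 7 groups of 3 replicates, and the authors pooled the 3 replicates of each group into 1 table, so each condition was 1 library with no replicate check.

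BCL11A encodes a zinc-finger protein that represses transcription. It is needed for B lymphoid development, and in erythroid cells it silences the fetal globin genes. Enhancers act on promoters that can lie far away on the chromosome, and CTCF bound at its motif halts the cohesin complex as it extrudes chromatin loops, which sets domain boundaries.

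All positions are in the hg38 build, on chromosome 2. BCL11A lies on the minus strand at chr2:60450520-60554467, over 103.9 kb, with the canonical start at 60553654. The enhancer viewpoint fell in a gap of 2075 bp without reporters at chr2:60099271-60101345, beyond the 3′ end of the gene. It was 453.3 kb from the promoter and 350.2 kb from the 3′ end. The CBS viewpoint fell in an intergenic gap of 1399 bp at chr2:60565003-60566401, 12 kb upstream of the promoter and 465.4 kb from the enhancer, so the gene lay between both viewpoints. The enhancer gap spanned the 5′ end, at 60100200, of the lncRNA ENSG00000271955, which is on the minus strand and runs away from BCL11A. The captured fragment, inferred from its place in the gap, began upstream of that end, in sequence without an annotated gene.

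The 3 elements that the counts join are shown by the reference sequence they contain, each 5′ to 3′. The NlaIII fragment of the enhancer viewpoint was not read from the counts but inferred from its place in the gap. It is chr2:60100253-60100452 on the plus strand, with capitals at the E-box CACCTG, the reverse complement of the motif CAGGTG of the lymphoid factor E2A. The promoter stretch directly upstream of the canonical start is chr2:60553659-60553877 on the minus strand, with capitals at a run that holds the EBF1 motif CCCNNGGG in 3 overlapping positions. For transcripts that begin further upstream this stretch is intronic. The stretch around the CTCF core in the CBS gap is chr2:60565657-60565723 on the minus strand, with capitals at AGGGGGC.
Enhancer viewpoint fragment: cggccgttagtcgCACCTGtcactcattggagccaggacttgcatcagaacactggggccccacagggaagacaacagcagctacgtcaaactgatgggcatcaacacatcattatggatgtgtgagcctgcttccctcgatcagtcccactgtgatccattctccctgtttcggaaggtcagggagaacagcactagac
Promoter stretch: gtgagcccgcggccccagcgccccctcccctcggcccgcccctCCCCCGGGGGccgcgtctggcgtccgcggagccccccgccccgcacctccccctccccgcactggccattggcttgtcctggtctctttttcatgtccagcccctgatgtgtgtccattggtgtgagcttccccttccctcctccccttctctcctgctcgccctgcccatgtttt
CTCF core of the CBS: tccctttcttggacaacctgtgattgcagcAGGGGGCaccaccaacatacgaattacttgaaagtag

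The motifs searched on both strands were AGGGGGC (CTCF core), CCCNNGGG (EBF1), CAGGTG (E2A), GAGGAA (PU.1), TGTGGT (RUNX) and TTGCNNCAA (C/EBP). The inferred enhancer fragment held 1 match, CAGGTG, which occurs in 13.7% of chromosome 2 windows of 200 bases. The promoter stretch, with 70.8% G and C, held CCCNNGGG, found in 3.12% of chromosome 2 windows of its length and in 15.4% of 35116 RefSeq promoter stretches. It also held 1 match of AGGGGGC, found in 12.3% of those promoter stretches. The CBS gap held 1 AGGGGGC, 12 bp from its middle, where 10.1% of chromosome 2 windows of its length hold one, and 4 matches of GAGGAA, which 68.9% of such windows hold.

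The enhancer libraries held 84880 (0 h), 119758 (24 h), 120698 (96 h) and 132372 counts (96h-depl), and the CBS libraries held 66911, 74274 and 77616. The locus total took in every count whose reporters all lay within 1 Mb of the viewpoint, and it was 47911, 64214, 58295 and 68870 for the enhancer and 31091, 34582 and 27123 for the CBS. Counts were distant where more than 10 kb separated the viewpoint and each of the reporters, pairwise. Such counts made up 29.3% to 32.6% of the locus total in 6 of the libraries but 19.5% in 96h-depl, and this lower share touches each comparison of that library with the locus total. Windows were 12 kb wide and centred on an element. A change is the log2 odds ratio of the window's counts against the rest of the locus total in 2 libraries, with a 95% interval in brackets for counting error only. Calls are from the exact conditional binomial test at a Benjamini-Hochberg adjusted p under 0.05 over 51 loci, so they tell libraries apart rather than conditions. That test takes the rest of each total as known, which holds closely only where the tested share is small. For shares of reporters on a side of a viewpoint or past the CBS, it calls too readily. Both reporters of a count enter those shares, so their intervals and calls treat dependent reporters as independent.

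The first question was how often the enhancer met the BCL11A promoter together with another distant fragment (E-P-X). The enhancer lost most of these contacts during conversion, with a fall by 24 h and a further fall by 96 h. E-P-X counts in the promoter window numbered 171 (0 h), 118 (24 h), 68 (96 h) and 70 (96h-depl). These were 0.357% [0.305, 0.414] of the locus total at 0 h, 0.184% [0.152, 0.220] at 24 h, then 0.117% [0.0906, 0.148] at 96 h and lastly 0.102% [0.0792, 0.128] in 96h-depl, with exact Clopper-Pearson intervals. The intervals of the 3 times did not overlap, whereas those of both 96 h libraries did.

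E-P-X fell by 0.96 [-1.30, -0.62] at 24 h against 0 h, with an adjusted p of 4.72e-08 by the exact test. The fall from 0 h to 96 h was 1.61 [-2.02, -1.21], that is, 0.327-fold of the starting odds. Between 24 h and 96 h it fell by a further 0.65 [-1.08, -0.22], with an adjusted p of 0.00385 by the exact test. Falls were called at 27.5% of the 51 loci at 24 h, at 27.5% at 96 h against 0 h and at 13.7% at 96 h against 24 h. In windows of 30 kb, with 675 (0 h), 729 (24 h) and 377 counts (96 h), the change was -0.32 at 24 h and -1.13 at 96 h against 0 h. The part of the fall seen by 24 h thus depended on the window. A 30 kb promoter window also takes in the CBS, 12 kb away, and more of the gene, so it mixes all of these. In the 12 kb CBS window the change at 24 h was 0.02. Within the gene, 440 to 450 kb from the enhancer, it was -0.18 as a share of distant reporters. How much each added to the smaller change in 30 kb windows was not tested. The late fall lost its call when all counts were divided by 3 to allow for dependent counts.

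The fall was spread over the promoter window. Of its 15 NlaIII fragments, 14 held counts, and the share of the locus total was lower at 96 h than at 0 h on 14 of 15 and higher on none. At 24 h it was lower on 13 and higher on 1. The fragment of the start site itself, chr2:60553469-60553662, had 5 counts at 0 h and 2 at 96 h, and the most counted one, chr2:60549677-60550076 in the gene, had 20 and 10. The window held few and long fragments, with a median of 395 bp, against 42 fragments in the CBS window and 66 in the mirror window, so its level was not compared with theirs.

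Windows at the same distance on the other side of the enhancer, the mirror windows, were added after the values had been seen. The mirror of the promoter held 126, 161, 151 and 98 counts, or 0.263%, 0.251%, 0.259% and 0.142% of the locus total. Its interval at 96 h against 0 h, -0.02 [-0.36, 0.32], lay wholly above that of the promoter. In 96h-depl, by contrast, the mirror was lower than at 96 h by 0.86 [-1.23, -0.50], while the promoter window gave -0.20 [-0.68, 0.28].

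**Figure D1:**
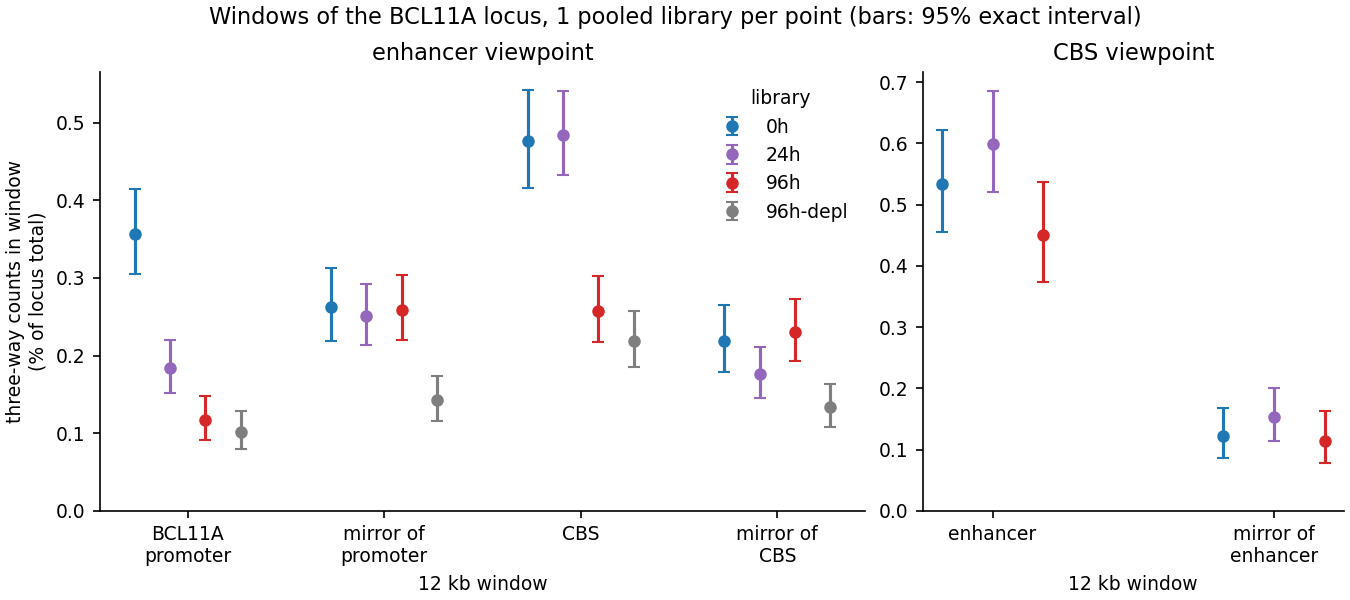
Three-way counts in 12 kb windows (y axis, percent of the locus total) from the enhancer viewpoint (left) and the CBS viewpoint (right), with 1 pooled library per point and bars for 95% exact intervals. The promoter falls stepwise from 0.357% at 0 h to 0.117% at 96 h, the CBS window stays near 0.48% until 24 h and is at 0.257% at 96 h, and the mirror of the promoter stays near 0.26% over these times.

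Contacts of the enhancer with the boundary site (E-C-X) followed another time course, lasting to 24 h and falling after it. The CBS window, whose edge lay 48 bp from that of the promoter window, held 228 (0 h), 311 (24 h), 150 (96 h) and 151 counts (96h-depl). The shares were 0.476% [0.416, 0.542], 0.484% [0.432, 0.541], 0.257% [0.218, 0.302] and 0.219% [0.186, 0.257]. The levels at 0 h and 24 h were thus close together, and both 96 h libraries lay below them.

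At 24 h the change in E-C-X was 0.02 [-0.22, 0.27], with an adjusted p of 0.916 by the exact test, where rises were called at 45.1% of loci. E-C-X fell by 0.89 [-1.19, -0.59] at 96 h against 0 h and by 0.91 [-1.19, -0.63] against 24 h, with an adjusted p of 2.22e-10 for the latter by the exact test. Falls were called at 9.8% of loci in the first and at 9.8% in the second of these comparisons, and in both BCL11A had the second lowest change of 51. On 30 of 42 fragments of the CBS window the share was lower at 96 h than at 0 h, and on 9 it was higher.

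The ratio of promoter counts to CBS counts was then followed, a comparison chosen after these values had been seen. Per CBS count there were 0.75 promoter counts at 0 h and 0.379 at 24 h, against 0.453 at 96 h and 0.464 in 96h-depl. The ratio changed by -0.98 on the log2 scale [-1.40, -0.56] at 24 h against 0 h and by 0.26 [-0.25, 0.77] at 96 h against 24 h. These are descriptions with no test, since the ratio restates both window counts above.

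From the other end, CBS contacts with the enhancer (C-E-X) gave a weaker version of the same order. The enhancer window held 166 (0 h), 207 (24 h) and 122 counts (96 h), or 0.534% [0.456, 0.621], 0.599% [0.520, 0.686] and 0.450% [0.374, 0.537] of the locus total. The 3 intervals overlapped. The change was 0.17 [-0.13, 0.46] at 24 h and -0.25 [-0.58, 0.09] at 96 h, and neither passed the exact test, where 29.4% of loci were called higher and 5.88% lower, respectively. From 24 h to 96 h C-E-X fell by 0.41 [-0.73, -0.09], with an adjusted p of 0.0214 by the exact test, and BCL11A was the 1 locus of 51 called lower (1.96%). That call was lost in windows of 7.5 kb, with normalization to distant counts and with counts divided by 3. Reporters beyond 1 Mb were in 53.5%, 53.4% and 65.1% of all CBS counts, and relative to the whole chromosome the change at 96 h against 0 h was -0.66 and called lower.

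The gene itself was next examined. Reporters inside BCL11A outside the promoter window were in 1645 (0 h), 2020 (24 h), 1504 (96 h) and 1570 enhancer counts (96h-depl), or 3.43%, 3.15%, 2.58% and 2.28% of the locus total. The gene body fell by 0.13 [-0.23, -0.04] at 24 h and by 0.42 [-0.53, -0.32] at 96 h, less than the promoter window on both occasions. The exact tests gave p of 0.00649 and 1.52e-16, with no adjustment because only BCL11A was tested. The call at 24 h was lost with each fragment pair counted once (-0.0806) and with counts divided by 3 (-0.13). From the CBS, the gene body more than 20 kb away held 2076, 2323 and 1694 counts, or 6.68%, 6.72% and 6.25%, a change of 0.01 [-0.08, 0.10] at 24 h and of -0.10 [-0.20, -0.01] at 96 h.

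The erythroid enhancers of BCL11A, named +55, +58 and +62 for their distance in kb from the start, lie in an intron, in the interval 54 to 64 kb downstream of it. This interval held 134, 212, 179 and 145 distant reporters of the enhancer, or 0.462%, 0.540%, 0.524% and 0.540% of all distant reporters, where each distant count gives a pair of reporters. Its change from 0 h to 96 h, 0.18 [-0.14, 0.50], lay above the interval of the gene body on the same scale, -0.41 [-0.51, -0.31], so the loss was not even along the gene. From the CBS the interval held 232, 275 and 241 reporters, or 1.20%, 1.22% and 1.44%, with a change of 0.26 [-0.00452, 0.52].

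To place these changes along the chromosome, distant reporters were counted in 10 kb bins and each bin was tested against all others. At 24 h, 7 bins were higher and 12 lower than at 0 h of 185 tested (10.3%). At 96 h, 27 were higher and 24 lower of 172 (29.7%), but with counts divided by 3 only 1 was higher and 7 were lower of 149. Of the 12 bins over the gene, promoter and CBS, 6 were lower at 96 h and none higher, with a median change of -0.43, against a median of 0.05 over all bins. The lowest of all bins with at least 100 reporters was the promoter bin, 450 to 460 kb from the enhancer, with 126 reporters at 0 h and 42 at 96 h, a change of -1.81 [-2.32, -1.31].

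The adjoining bins within BCL11A, at 440 to 450 kb, 430 to 440 kb and 420 to 430 kb, changed by -0.996, -1.04 and -0.87. The called falls ran on past the promoter and CBS, at -0.85, -0.78, -0.66 and -0.76 in the 4 bins from 460 to 500 kb. They thus formed a block from 420 to 500 kb, lowest at the promoter, and a second group lay at 280 to 310 kb with -0.58, -0.77 and -0.62. At 24 h the promoter bin had 89 reporters and a change of -0.94 [-1.33, -0.55], the bin at 420 to 430 kb was at -0.86 [-1.13, -0.59] and that at 430 to 440 kb at -0.45 [-0.73, -0.18]. The bin at 440 to 450 kb, with -0.18 [-0.39, 0.03], and the 4 bins past 460 kb were not called at 24 h. Outside the gene, the bin 680 to 690 kb to the other side, within ENSG00000271955, fell by 1.12 at 24 h and by 0.99 at 96 h.

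Of the 27 rises at 96 h, 22 lay on the side away from the gene and 5 between the enhancer and the 3′ end of BCL11A. Of 99 bins on the side away, 22 were higher and 9 lower, and the 5 highest rises among bins with at least 100 reporters all lay 840 to 940 kb from the enhancer. The bin at 840 to 850 kb, over the lncRNA genes LINC01793 and ENSG00000271955, went from 87 reporters to 216, a rise of 1.08 [0.72, 1.43]. The bin at 920 to 930 kb went from 41 to 100, a rise of 1.04 [0.52, 1.56]. The side as a whole held 55.2% (0 h), 53.1% (24 h) and 57.7% (96 h) of distant reporters. That was a fall of 0.12 [-0.17, -0.08] at 24 h, where 51% of loci were called lower. At 96 h it was a rise of 0.15 [0.10, 0.19], where 37.3% were called higher. Calls of side shares come too readily, as described above.

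**Figure D2:**
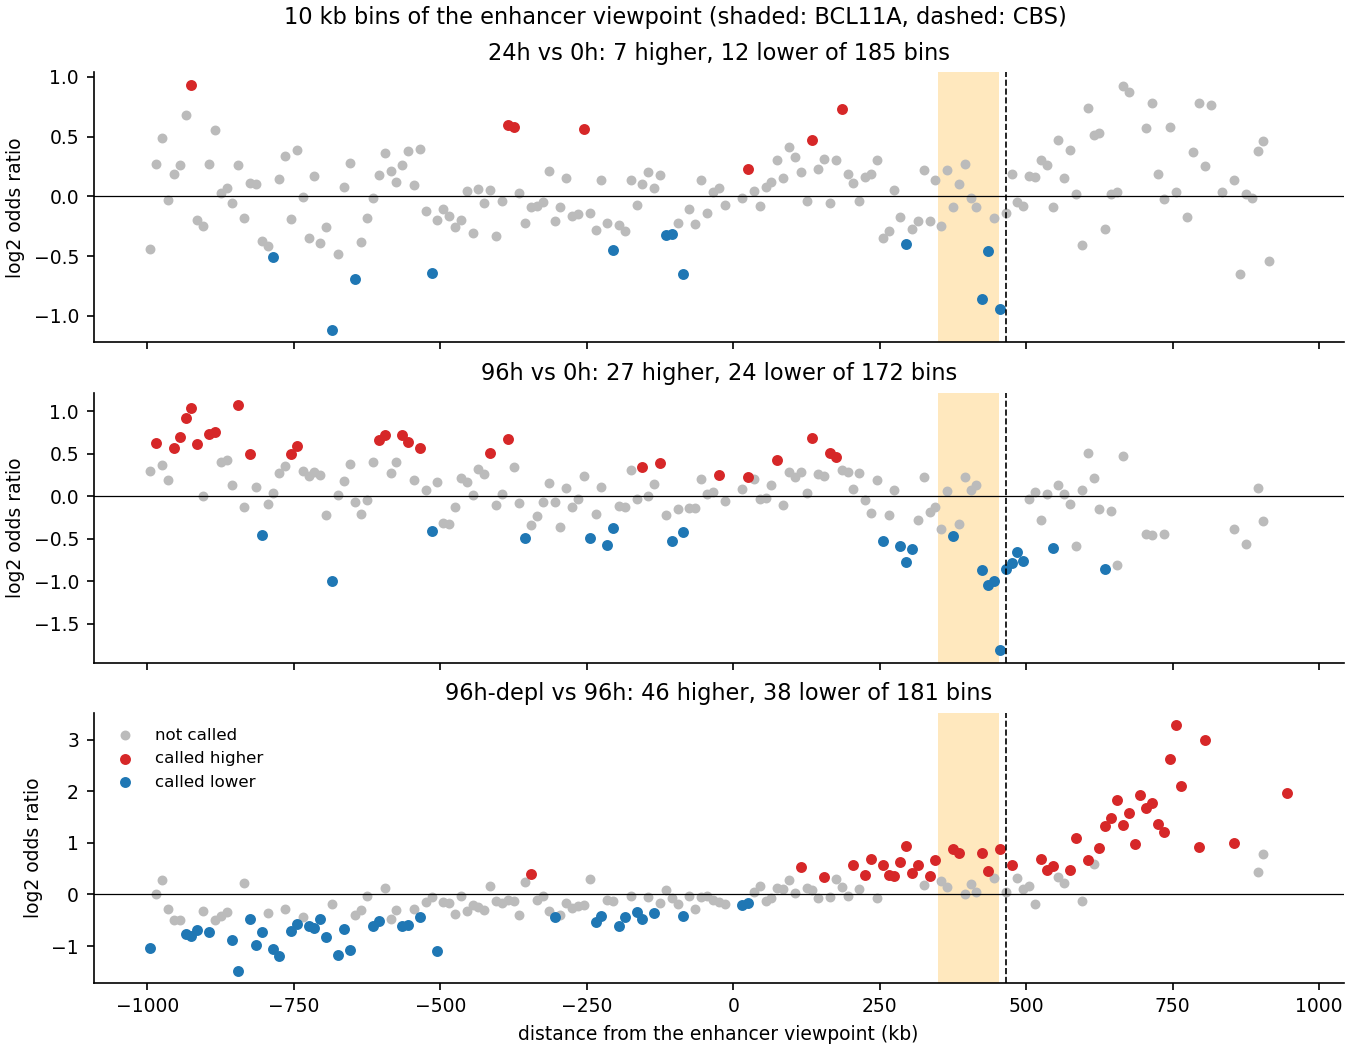
Change of each 10 kb bin of the enhancer viewpoint (y axis, log2 odds ratio) by distance from it (x axis, kb, positive towards the gene) in 3 comparisons of pooled libraries, with red points called higher, blue points called lower and grey points not called. At 96 h the lowest bin is the promoter bin at -1.81, left of the dashed CBS line, and in 96h-depl the points rise beyond the CBS and fall on the other side.

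Beyond the CBS the enhancer met less of the flank at 96 h. The share of gene-side reporters past the CBS window was 18.7% (0 h), 20.8% (24 h), 15.8% (96 h) and 22.4% (96h-depl). It rose by 0.19 [0.11, 0.28] at 24 h, where 41.2% of loci were called higher. It fell by 0.30 [-0.39, -0.21] at 96 h against 0 h, where 70.6% were called lower. Such calls come too readily, by the limit given above. The flank holds the protein-coding genes PAPOLG, a poly(A) polymerase, and REL, a subunit of the transcription factor NF-κB, at 656 kb and 781.3 kb from the enhancer.

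The REL promoter window held 26 (0 h), 42 (24 h), 13 (96 h) and 46 counts (96h-depl). REL contacts were low in the 96 h library and higher in the remaining 3, with a change of -1.26 [-2.20, -0.31] at 96 h against 0 h. PAPOLG had 35, 51, 31 and 68 counts, and its change at 96 h was -0.46 [-1.15, 0.24]. SANBR had 12, 41, 11 and 40 counts, while the overlapping windows of PUS10 and PEX13 ranged from 23 to 36 counts.

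The lncRNA MIR4432HG, between the enhancer and BCL11A at 339.5 kb, was looked at after its values had been seen. Its promoter window held 196, 254, 199 and 212 counts, or 0.409%, 0.396%, 0.341% and 0.308%. The change from 0 h to 96 h, -0.26 [-0.55, 0.02], lay above the whole interval of the BCL11A promoter.

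**Figure D3:**
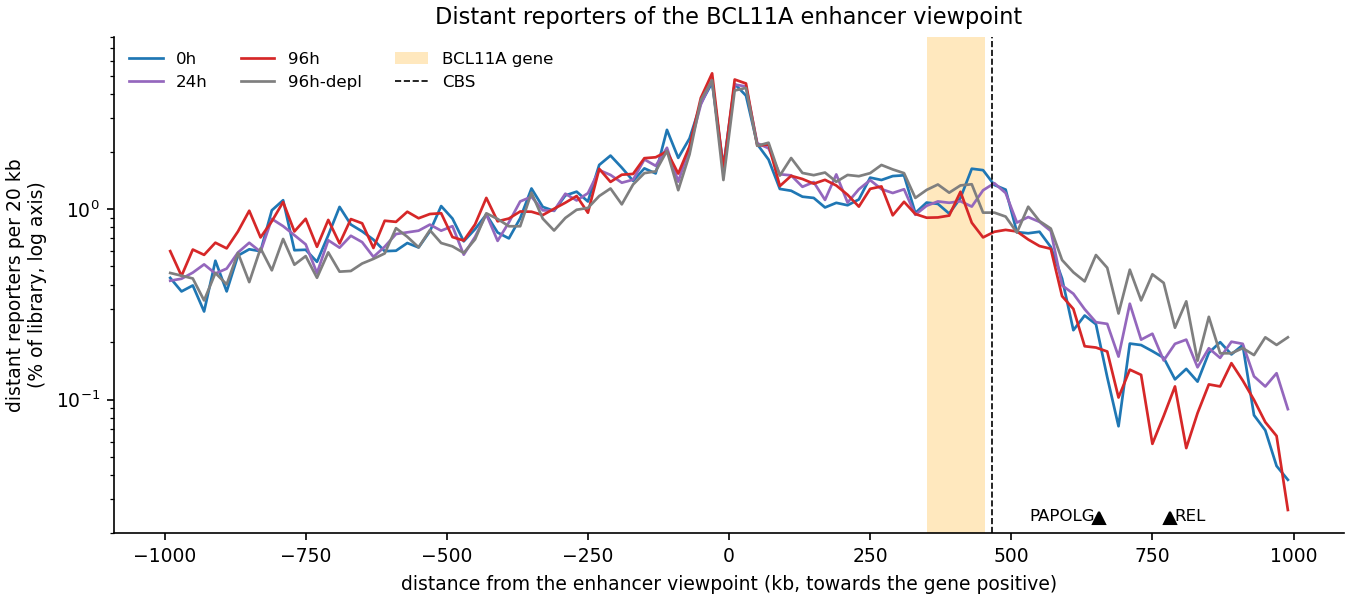
Distant reporters of the enhancer viewpoint per 20 kb (y axis, percent of the library's distant reporters, log scale) by distance (x axis, kb), with 1 line per pooled library, BCL11A shaded, the CBS dashed and the starts of PAPOLG and REL as triangles. The 96 h line is lowest over the 5′ part of BCL11A and the CBS, and beyond the CBS the 96h-depl line lies above the control at 96 h over most of the flank, with 11.6% against 6.59% of distant reporters there.

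The comparison with the CTCF-depleted subclone asked what differed at 96 h when CTCF was depleted. Contacts of the enhancer spread past the CBS and dropped on the other side, while no change of promoter contacts relative to the locus total was resolved. E-P-X changed by -0.20 [-0.68, 0.28] in 96h-depl against 96 h, with an adjusted p of 0.451 by the exact test, where 92.2% of loci were called lower. This interval, from 70 and 68 counts, held the median change of the 15 B cell loci, -0.60, but not that of all 51 loci, -0.93. E-C-X changed by -0.23 [-0.56, 0.09], with an adjusted p of 0.172, where again 92.2% of loci were called lower. Relative to distant counts alone E-P-X changed by 0.39 and was not called, while E-C-X was called higher at 0.36 [0.03, 0.69], with an adjusted p of 0.0385 by the exact test. Their sign thus depended on the reference.

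The gene body gave the same dependence. It fell by 0.18 [-0.29, -0.08] relative to the locus total, by the exact test with p of 0.000444, but its share of distant reporters went from 4.81% at 96 h to 6.40% in 96h-depl, a change of 0.43 [0.33, 0.53]. It was called higher relative to distant counts, at 0.45, with each pair counted once, at 0.19, and without neighbouring restriction fragments, at 0.16. As a share of distant reporters, all 12 bins over the gene, promoter and CBS were above 0, with 5 called higher. Of all bins, 46 were higher and 38 lower of 181 tested (46.4%).

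Past the CBS, 26 of 36 bins were called higher and none lower, with a median change of 0.95. Over the whole locus, with counts divided by 3, only 3 bins were called higher and 4 lower of 146. With each fragment pair counted once these were 23 and 17 of 171. The share of gene-side reporters beyond the CBS rose by 0.62 [0.54, 0.71], where 96.1% of loci were called higher. BCL11A stood at rank 31 from the highest of 51. The region 120 to 420 kb past the CBS, chosen after the profile had been seen, held 2.84% (0 h), 3.41% (24 h), 2.12% (96 h) and 5.45% (96h-depl) of distant reporters. On this scale its level in 96h-depl lay above those of all 3 other libraries, and the change against 96 h was 1.41 [1.28, 1.54]. The region held 1339 reporters at 24 h and 1465 in 96h-depl, where the locus totals were 64214 and 68870. Relative to the locus total these 2 libraries thus lay close together. Within the region REL rose by 1.54 [0.67, 2.42] and PAPOLG by 0.88 [0.27, 1.49] against 96 h, relative to the locus total.

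The opposite side held 47.8% of distant reporters in 96h-depl against 57.7% at 96 h. This fall of 0.58 [-0.62, -0.53] was the lowest of 51 loci. Of these, 39.2% were called lower, by a test that calls such side shares too readily. The next lowest was ATP8B4 at -0.51. Of 99 bins on that side 36 were lower and 1 higher, but with counts divided by 3 only 4 bins of the whole locus were called lower of 146. The bin at 840 to 850 kb that had risen to 216 reporters at 96 h held 61 in 96h-depl, a change of -1.48 [-1.89, -1.07]. It had been named for its height in the 96 h library, so part of this fall follows from that choice. At 0 h it held 87 of 28984 distant reporters, and in 96h-depl 61 of 26874.

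The remaining fragment (X) of E-P-X counts was described after these shifts had been seen. It lay on the side away from the gene in 91 of 171 counts (0 h), 45 of 118 (24 h), 33 of 68 (96 h) and 21 of 70 (96h-depl), or 53.2%, 38.1%, 48.5% and 30%. It lay beyond the CBS in 13.5%, 16.1%, 17.6% and 35.7%. The intervals at 96 h and in 96h-depl, [9.46, 28.8] and [24.6, 48.1] for the flank beyond the CBS, overlapped. Distant counts that joined the enhancer, the promoter window and the CBS window at once (E-P-C) were 2 at 24 h and 0 in the other 3 enhancer libraries, where 3 counts, the limit that a count of 0 allows, would be 0.00436% to 0.00626% of the locus total. Both windows lie 48 bp apart, so the 10 kb required between reporters removes joint counts, and at any distance there were 3 (0 h), 4 (24 h), 0 (96 h) and 1 (96h-depl).

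From the CBS, the share of contacts on the gene side rose at 24 h and was below its starting level at 96 h. The gene side held 62.4% (0 h), 64.4% (24 h) and 59.6% (96 h) of distant reporters. It rose by 0.12 [0.07, 0.18] at 24 h, where 62.7% of loci were called higher. It fell by 0.17 [-0.23, -0.11] at 96 h, where 17.6% were called lower. By the limit given above for side shares, these calls come too readily. Among 10 kb bins at 96 h, 13 were higher and 8 lower of 148 tested (14.2%).

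Of the 13 gains, 7 lay in the upstream flank, 5 beyond the enhancer and 1 between the enhancer and the gene. Among bins with at least 100 reporters the highest rise was on the gene side, 850 to 860 kb from the CBS, from 55 reporters to 93, at 0.96 [0.48, 1.44]. In the upstream flank the bin 110 to 120 kb upstream of the CBS, over the pseudogene IFITM3P9, went from 222 reporters to 346, a rise of 0.85 [0.61, 1.10]. The bin at 90 to 100 kb, with no annotated gene, went from 252 to 368. The stretch from 80 to 120 kb, chosen after the profile had been seen, held 5.34%, 5.62% and 7.94% of distant reporters, with a rise of 0.61 [0.49, 0.73] at 96 h and 0.08 [-0.04, 0.20] at 24 h. The gain was thus seen at 96 h and not resolved at 24 h. The lowest bin with at least 100 reporters, at 290 to 300 kb upstream over REL-DT, fell from 70 to 31 reporters.

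CBS counts with the BCL11A promoter window (C-P-X), 12 kb away and in part within the 10 kb left out, were 120, 126 and 128, or 0.386%, 0.364% and 0.472%. The change of 0.29 [-0.07, 0.65] at 96 h, given with no test, had the opposite sign to E-P-X. At any distance C-P-X counts were 424, 441 and 322, or 1.36%, 1.28% and 1.19%, lower at 96 h than at 0 h, so this direction depended on the distance filter. The REL window held 54, 53 and 30 CBS counts, and that of PAPOLG 65, 78 and 71.

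**Figure D4:**
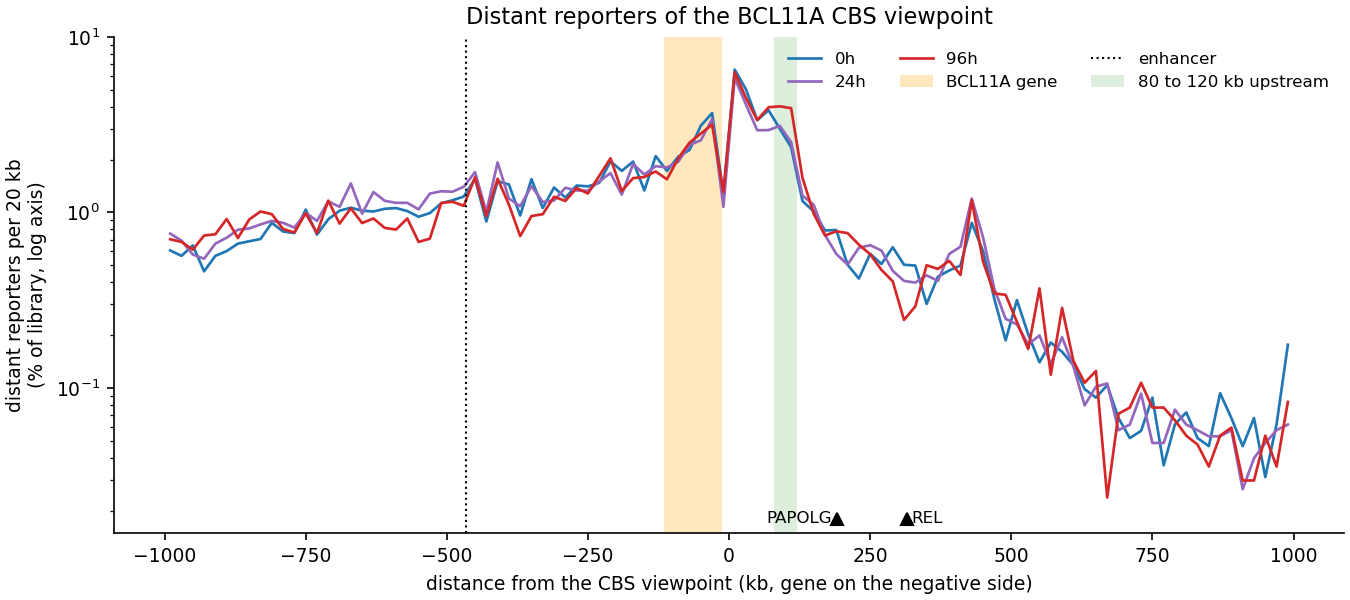
Distant reporters of the CBS viewpoint per 20 kb (y axis, percent of the library's distant reporters, log scale) by distance (x axis, kb, gene on the negative side), with 1 line per pooled library. The 96 h line lies above the other 2 in the green stretch 80 to 120 kb upstream, which holds 7.94% of distant reporters at 96 h against 5.34% at 0 h, and the 3 lines run close together over BCL11A.

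BCL11A was then set beside the other loci, of which 15 B cell and 36 iMac loci were analysed. At 96 h against 0 h its E-P-X change was the second lowest of 51, between IGLL1, part of the surrogate light chain, at -1.71 and EBF1 at -1.49. At 96 h against 24 h it was the lowest, below EBF1 at -0.38, though the difference from EBF1 was not resolved. Over the whole course a fall of E-P-X was called at 14 of the 15 B cell loci, and at 14 of all 51 loci (27.5%). The share of E-P-X counts at BCL11A ranked 48 of 51 at 0 h and last in each later library, where the median locus had 0.965% to 1.89%. Loci differed in enhancer distance and fragment size, and only changes were compared further.

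The other B lineage transcription factors served as the closest comparison. EBF1, which starts the B cell program with its enhancer 588.1 kb away, had 0.628% (0 h), 0.291% (24 h) and 0.224% (96 h). MYB, a progenitor factor, had 1.82%, 1.07% and 0.890%, and PAX5, which maintains B cell identity, had 1.89%, 1.39% and 1.41%. All fell, and of the 4 BCL11A and EBF1 fell most over the whole course. A relation to enhancer distance was not tested.

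At 96 h against 0 h the BCL11A change was lower than that of PAX5 by 1.18 on the log2 scale, a difference of -1.18 [-1.64, -0.73] with an adjusted p of 1.05e-06 from counting error over 3 pairs. It was lower than that of MYB by a difference of -0.57 [-1.01, -0.12], with an adjusted p of 0.018. The difference from EBF1, -0.12 [-0.60, 0.36], had an adjusted p of 0.615. At 24 h only the difference from PAX5, -0.51 [-0.91, -0.12], passed, with an adjusted p of 0.0336. At 96 h against 24 h the differences were -0.28 [-0.79, 0.24] from EBF1 and -0.38 [-0.85, 0.09] from MYB, and neither passed. The difference from PAX5 there, -0.67 [-1.15, -0.19], passed. In 96h-depl against 96 h the differences were -0.09 [-0.65, 0.47] from EBF1, 0.14 [-0.38, 0.65] from MYB and 0.29 [-0.23, 0.82] from PAX5, and none passed.

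**Figure D5:**
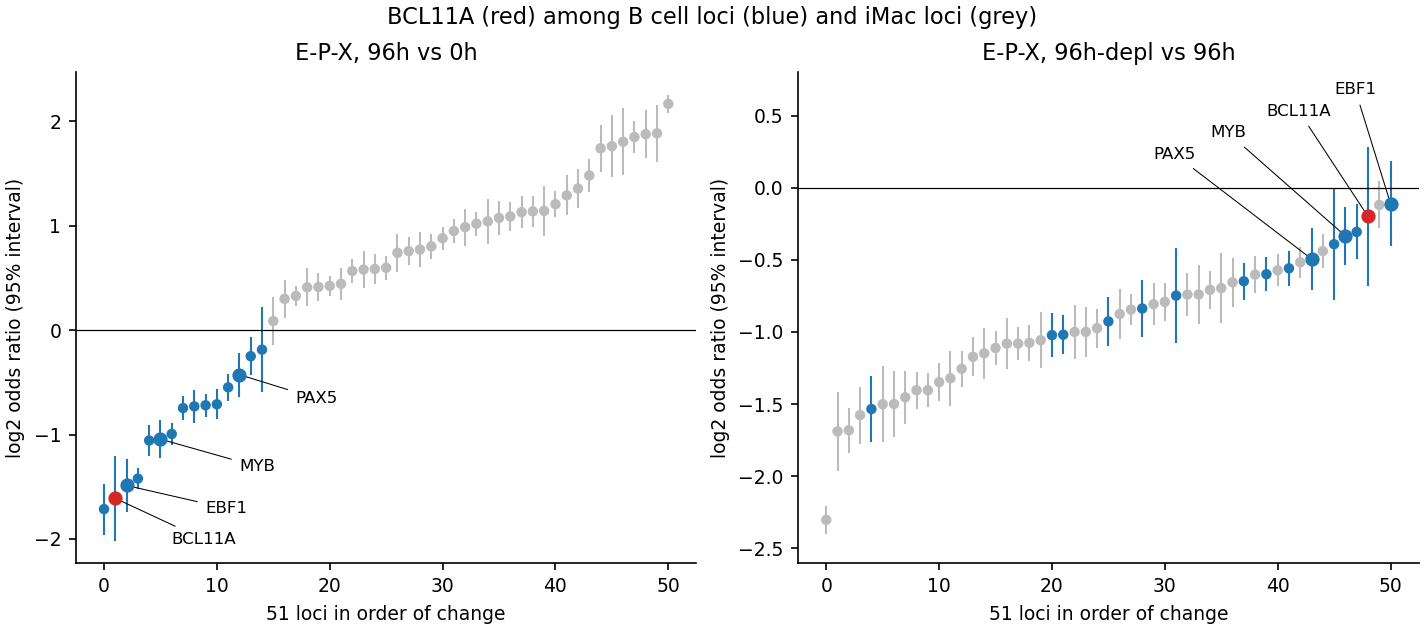
E-P-X change (y axis, log2 odds ratio with 95% interval) of 51 loci in order of change (x axis, rank) at 96 h against 0 h (left) and in 96h-depl against 96 h (right), with BCL11A red, B cell loci blue and iMac loci grey. BCL11A is second lowest on the left at -1.61, and on the right it lies at rank 3 from the highest at -0.20, near EBF1 at -0.11.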

How the data were processed

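Tri-C libraries were prepared by the authors from 3 biological replicates per group, digested with NlaIII and processed with CapCruncher in capture mode against hg38. The authors merged the replicates and deposited counts, which give how often a viewpoint was found with each pair of reporter fragments. Every pair of a read's reporters was counted, so counts of 1 read are not independent, and PCR or read duplicates could not be examined here. All 174251 fragments of the 7 tables matched NlaIII fragments of the reference.

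Raw counts were used here. Each viewpoint was placed in the gap between the most counted flanking reporters, and the promoter at the canonical start. The enhancer fragment was inferred from its place in that gap, since reporters leave out the viewpoint. Windows, distant counts and exact tests are as given beside the results, with a pseudo-count of 0.5 in log2 ratios, at least 20 window counts per locus and at least 50 reporters per bin. Intervals of log2 ratios are normal intervals for counting error. Differences between loci used the same errors. IFNGR2 and TASL, the 2 loci left out by the study, were left out. Named were BCL11A, protein-coding genes within 1 Mb, EBF1, MYB, PAX5, the loci next in rank, the erythroid enhancer interval and, per comparison, up to 5 called rises and 5 falls among bins with at least 100 reporters. Items outside this rule are said to be chosen after their values were seen. The members, lists and tests were chosen with earlier results of these data known. Tests of E-P-X windows and of 10 kb bins were checked on simulated data with independent counts. Side shares, shares past the CBS and dependent counts were not simulated. The software was NumPy 2.4.6, SciPy 1.17.1, pandas 2.3.3 and matplotlib 3.10.9 under Python 3.11.15. Promoter stretches for motif shares were from RefSeq.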

Additional observations from a re-analysis of the deposited data

How the results depend on the processing

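Of 173 alternative values for BCL11A, 135 were kept. For a change this meant the same direction and side of the threshold, and for called bins only a similar total number. Side shares, shares past the CBS and bins use distant counts only. Leaving out neighbouring restriction fragments therefore left them as they were, and their being kept there is no check. The falls of E-P-X at 24 h and 96 h and of E-C-X at 96 h kept direction and side of the threshold under every setting run. Their ranges were -1.06 to -0.32, -1.91 to -1.13 and -1.11 to -0.73. No paired analysis was possible because the replicates were pooled before deposition, which also kept single replicates from being left out.

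In 96h-depl against 96 h, E-P-X turned to 0.18 in windows of 7.5 kb, 0.39 relative to distant counts, 0.16 with each fragment pair counted once, 0.14 without neighbouring restriction fragments and 0.0706 at the outermost annotated start, and was called lower at -0.26 in windows of 30 kb. E-C-X turned to 0.36, now called higher, relative to distant counts, and to 0.013 and 0.103, not called, with pairs counted once and without neighbouring fragments, and was called lower at -0.89 in windows of 7.5 kb. The gene body turned to 0.45, 0.19 and 0.16 under these 3 settings, called higher in each, and lost its call at -0.0721 relative to the whole chromosome. E-C-X at 24 h against 0 h turned to -0.0468 in windows of 7.5 kb, -0.13 in windows of 30 kb and -0.0497 relative to the whole chromosome. Windows of 30 kb at the promoter and at the CBS overlap, and each holds both elements. From the CBS, the gene body at 24 h turned to -0.0849 relative to distant counts and -0.0234 without neighbouring fragments.

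C-E-X at 96 h against 24 h lost its call at -0.46 in windows of 7.5 kb, -0.34 relative to distant counts and -0.43 with all counts divided by 3. It was called higher at 24 h in windows of 30 kb, at 0.29, and lower at 96 h against 0 h relative to the whole chromosome, at -0.66. With counts divided by 3, calls were lost for E-P-X at 96 h against 24 h at -0.67, for the gene body from the enhancer at 24 h at -0.13 and for the gene body from the CBS at 96 h at -0.10. The latter was also lost without neighbouring fragments at -0.0900, and the gene body from the enhancer at 24 h with pairs counted once at -0.0806.

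Bins called from the enhancer were 8 at 24 h and 40 in 96h-depl with pairs counted once, and 9 from the CBS. With counts divided by 3 they were 2 at 24 h, 8 at 96 h (1 higher, 7 lower) and 7 in 96h-depl, and 2 from the CBS. With at least 200 reporters per bin they were 50 in 96h-depl and 11 from the CBS. The cause of these changes was not tested. Window counts of 68 to 311 limit what could be resolved, and intervals cover counting error between pooled libraries, not the spread between cultures.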
